A study of Homo sapiens with 7 samples.

Results

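The proteasome genes are described here in 2 human leukaemia lines of the T-cell lineage (T-ALL) whose level of STAG2 had been changed. STAG2 is a subunit of cohesin, the ring complex that holds sister chromatids together and shapes chromatin loops. The members are the protein-coding genes whose symbol begins with PSMA, PSMB, PSMC, PSMD, PSME, PSMF or PSMG followed by a number, which gave 49 of the 60754 features listed per library (20004 of them protein-coding). Another 37 features carry such a name with another biotype, 32 pseudogenes and 5 long non-coding RNAs, and were left out. PSMA8, an alpha subunit of the testis, and PSMB11, the catalytic subunit of the thymus, were at 0 counts in all 7 libraries, which allows at most 3 counts per library. The other 47 members passed the filter on low counts in each comparison. PSMC3IP is a meiotic recombination factor that matched by its name and is no proteasome subunit.

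In PF382, 2 libraries came from untreated wild-type cells and 3 from cells in which STAG2 was knocked out with Cas9 and a guide RNA delivered as ribonucleoprotein. MOLT-14 cells were transduced with an empty vector for 1 library and with STAG2 for another. All cells were grown in RPMI medium with serum. The labels name each PF382 library by a code and do not say whether the codes are clones or separate cultures, so p-values measure the spread between these libraries, which may be technical. Of the wild-type libraries, replicate 1 is SA19 and replicate 2 is SA28, and knockout replicates 1 to 3 are SA20, SB23 and SB37. Values are expected counts from the deposited files as CPM, counts scaled to library size with TMM factors, and log2 changes come from edgeR's quasi-likelihood test with Benjamini-Hochberg adjustment over all genes and a threshold of 0.05.

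The proteasome is the main protease of the cytosol and nucleus and degrades proteins tagged with ubiquitin. Its core is a barrel of stacked rings, with alpha subunits that gate the entry and beta subunits that include the proteolytic sites. A cap with ATPases, ubiquitin receptors and a deubiquitinase binds, unfolds and feeds substrates, while activators of another kind open the core without ubiquitin. Lymphoid cells also make immunoproteasomes, in which PSMB8, PSMB9 and PSMB10 replace the catalytic subunits PSMB5, PSMB6 and PSMB7 and change the peptides offered to T cells.

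The total counts were 32609485 and 33145516 in wild-type PF382, 65262329 to 93970572 in the knockouts, and 38678382 and 45013450 in MOLT-14. Small RNA genes took 21.0% and 14.9% of the wild-type counts, 11.96% to 14.0% of the knockout counts, and 4.87% and 9.27% in MOLT-14. STAG2 itself measured 315 and 537 CPM in the wild-type libraries and 239, 166 and 181 CPM in the knockout libraries (log2 change -1.13 ± 0.26 (SE), adjusted p = 0.0218), so that knockout RNA was lower and still present. In MOLT-14, STAG2 was at 1.15 CPM with the empty vector and 137 CPM after transduction. The T-cell markers CD3D, CD3E and CD3G were expressed in all 7 libraries, and of 7 T-cell markers CD5 fell in the knockouts (log2 change -0.95, adjusted p = 0.0041). Of the 7, 6 reached 5 CPM in a MOLT-14 library. Between the means of the lines, 3 were called higher in PF382 and 1 lower, where 27% and 28.4% of all genes were. The lowest log2 difference of a T-cell marker was -4.06. HBB and HBA1 were at 0 counts in each. Of 4 B-cell markers MS4A1 was at 0 counts, and their sum, nearly all CD79A, was 38.0 and 7.03 CPM in wild type, 3.91 to 19.3 CPM in the knockouts, and 30.3 and 42.1 CPM in MOLT-14. The sum of 5 myeloid markers was at most 2.01 CPM in any library. Of 4 stromal and epithelial markers, KRT8 fell in the knockouts (log2 change -4.53 ± 0.46 (SE), adjusted p = 0.00299), COL1A2 was at 0 counts, and their summed level was 7.06 and 4.31 CPM in wild type and 1.04 to 1.77 CPM in the knockouts. The depth, the small RNA share, CD5 and KRT8 moved with the knockout group, while the B-cell and myeloid sums overlapped between the PF382 groups. The part of these differences in the results was not tested.

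Proteasome genes were higher in the PF382 knockout libraries in nearly every role group. Of the 47 members tested, 33 rose, 0 fell and 14 did not pass the test, where 15.8% of all 17442 genes tested rose and 14.6% fell. In edgeR 38 members were higher at an unadjusted p under 0.05 and 0 lower, where 22.2% and 22.1% of all genes were. DESeq2 called 37 members higher and 0 lower, against 19.1% and 14.4% of all genes. All 47 log2 changes were above 0, from 0.08 (PSMD10) to 1.33 (PSMD1), with a median of 0.65 against -0.02 over all genes tested and 0.09 over the protein-coding ones. For 40 members each knockout library lay above both wild-type libraries, an order found for 30.4% of all genes. The 7 members whose groups overlapped were PSMB8, PSMB9, PSMB10, PSMD10, PSMG2, PSMG4 and PSMC3IP. Summed over the members without PSMC3IP, the share of protein-coding counts was 0.501% and 0.480% in wild type and 0.729%, 0.714% and 0.761% in the knockouts. That is 0.491% ± 0.0148 (SD, n = 2) against 0.735% ± 0.0237 (SD, n = 3), a ratio of 1.498, with an exact two-sided permutation p of 0.2, the smallest that 2 against 3 libraries can give. In bulk RNA, more RNA per cell and more cells with a high level cannot be told apart.

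**Figure D1:**
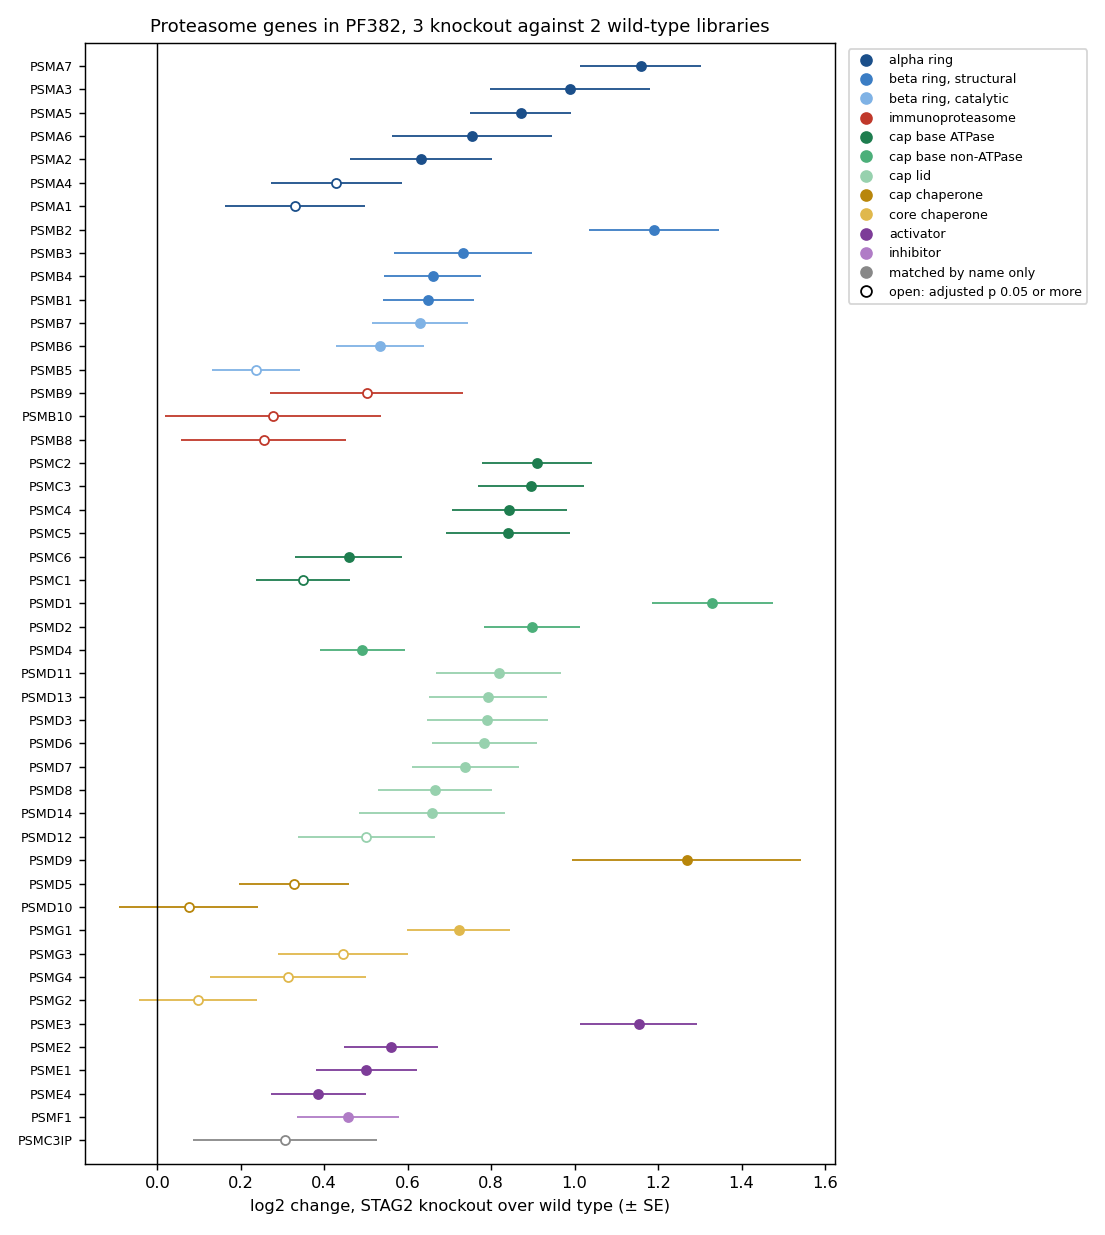
Log2 change of each tested proteasome gene in PF382, knockout over wild type, with the standard error as the bar, ordered by role from the core to the activators. Filled points passed the test (33 genes) and open points did not (14 genes). All points lie right of 0, from 0.08 for PSMD10 to 1.33 for PSMD1, and the 3 immunoproteasome genes are open.

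The count of 33 was lower without any 1 knockout library. It was 21 without knockout replicate 1, 18 without replicate 2 and 18 without replicate 3. The share of all genes that rose fell to 8.27%, 7.48% and 7.19%, and the members' median stayed between 0.58 and 0.67. With a single wild-type library left, the members' median was 0.65 (without SA19) or 0.69 (without SA28). The cause of the lower counts was not tested. With upper-quartile scaling 27 members rose at a median of 0.49, where 10.5% of all genes rose. The median of all genes moved to -0.18, and the share of higher genes among all calls moved from 52% to 33.8%. Relative to the median of all genes, the members' median was 0.67 under both scalings. A change of scaling shifts all genes nearly alike, so this difference could hardly move. With other sets of genes it was 0.56 (protein-coding genes only) and 0.57 (at least 1 CPM in 2 libraries). A set of 17 genes was called in all 12 alternatives: PSMA5, PSMA7, PSMB1, PSMB2, PSMC2, PSMC3, PSMC4, PSMC5, PSMD1, PSMD2, PSMD3, PSMD6, PSMD7, PSMD11, PSMD13, PSME3 and PSMG1. In every setting 43 of the 47 members had a log2 change above 0, the exceptions being PSMB8, PSMB10, PSMD10 and PSMG2. The shares of all genes called in all 12 alternatives, or above 0 in every setting, were not counted.

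Because so many members moved together, their promoters were read. RefSeq (GRCh38.p14) promoter windows were matched for 43 of the 49 members, and the 250 bases before the most upstream listed start were searched on both strands. That start was not always the outer end of the annotated gene. Some windows lay wholly within the gene span and not upstream of it, as for PSMA1 and PSMG4. Others overlapped the span in part, as for PSMD12. How many windows of all genes do so was not counted. The antioxidant response element core TGACNNNGC, the kind of site bound by NFE2L1 and NFE2L2 with small MAF proteins, was found in 11 of the 43 (25.6%), against 11.8% of the 10127 windows of protein-coding genes tested and 11% of all 27305 windows. It was present in 7 of 28 windows of genes that rose in the knockout and in 4 of the 15 other windows. The genes that held it were PSMB3, PSMB9, PSMD3, PSMD5, PSMD9, PSMD12, PSME1, PSME2, PSME4, PSMG1 and PSMG2. Of these, PSMB9, PSME2, PSMG1 and PSMG2 had windows wholly within the annotated gene span. The interferon-stimulated response element core (GAAA, 2 free bases, GAAA) was found in 5 of 43 windows (11.6%), those of PSMA4, PSMB4, PSMB10, PSME2 and PSMG4, against 2.48% of the tested coding windows. The ETS core CCGGAAG was in 23.3% against 16%, the CCAAT box (CCAAT) in 44.2% against 35.2%, and the GC box GGGCGG in 62.8% against 67.1%. The E-box CACGTG was in 6.98% against 8.99%, the gamma-activated site core TTCCNNGAA in 6.98% against 3.79%, the YY1 core AAGATGG in 4.65% against 3.46%, and the heat shock element (GAA, 2 free bases, TTC, 2 free bases, GAA) in 0 of 43 against 0.296%. Matches of different motifs could overlap, and a match is a string of letters and not a shown binding site.

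Shown are 4 stretches that place the motifs beside the responses, chosen after the values were seen and because they end before the annotated exons: PSMB3 and PSMD3, which hold the antioxidant response element core and rose, PSMD1, which rose most, and PSMB5, the catalytic gene that did not pass the test. Each runs 5′ to 3′ on the gene's strand from 250 to 21 bases before the start, with every match to a searched motif in capitals. They lie at chr17:38752491-38752720 (plus strand), chr17:39980557-39980786 (plus strand), chr2:231056617-231056846 (plus strand) and chr14:23035241-23035470 (minus strand).
PSMB3: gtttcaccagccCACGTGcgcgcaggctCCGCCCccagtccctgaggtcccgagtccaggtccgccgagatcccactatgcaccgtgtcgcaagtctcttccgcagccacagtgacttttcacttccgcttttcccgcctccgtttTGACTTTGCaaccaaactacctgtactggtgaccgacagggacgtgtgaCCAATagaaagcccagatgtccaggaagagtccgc
PSMD3: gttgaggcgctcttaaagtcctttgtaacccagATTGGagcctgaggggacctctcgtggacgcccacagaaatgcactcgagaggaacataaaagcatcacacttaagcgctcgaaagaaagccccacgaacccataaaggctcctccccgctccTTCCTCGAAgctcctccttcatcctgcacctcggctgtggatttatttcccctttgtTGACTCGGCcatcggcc
PSMD1: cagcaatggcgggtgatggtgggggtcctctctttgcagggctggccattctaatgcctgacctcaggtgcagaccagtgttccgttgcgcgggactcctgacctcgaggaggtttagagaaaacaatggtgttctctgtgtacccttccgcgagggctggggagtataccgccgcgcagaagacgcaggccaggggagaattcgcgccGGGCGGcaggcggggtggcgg
PSMB5: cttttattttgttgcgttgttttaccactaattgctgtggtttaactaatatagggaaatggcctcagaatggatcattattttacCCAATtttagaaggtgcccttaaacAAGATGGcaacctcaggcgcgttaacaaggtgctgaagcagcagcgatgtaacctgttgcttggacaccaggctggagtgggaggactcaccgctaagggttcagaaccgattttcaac
In PSMB3 the antioxidant response element core spans bases 104 to 96 before the start, downstream of an E-box and a GC box and upstream of a CCAAT box. In PSMD3 it spans bases 37 to 29, after a CCAAT box on the other strand and a gamma-activated site core. The PSMD1 stretch holds 1 GC box, at bases 41 to 36, of 3 in its searched window, and the PSMB5 stretch a CCAAT box and a YY1 core. PSMB3 measured 96.3 and 127 against 166, 190.2 and 202 CPM (log2 change 0.73 ± 0.17 (SE), adjusted p = 0.0208) and PSMD3 85.3 and 82.0 against 168, 130.4 and 136 CPM (0.79 ± 0.15 (SE), adjusted p = 0.0112), wild type against knockout. Whether any of these motifs bears on the size of the change was not tested.

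In the alpha ring, which forms the gate of the core, 5 of 7 expressed genes rose and 2 did not pass the test. PSMA7 (chr20:62136735-62143440 in GRCh38, GENCODE 29) measured 198 and 232 CPM in the wild-type libraries and 444, 473 and 520.3 CPM in the knockout libraries. Each knockout value was more than 1.5 times the highest wild-type value, with a log2 change of 1.16 ± 0.14 (SE), adjusted p = 0.00415. PSMA5 measured 88.7 and 93.2 CPM in the wild-type libraries and 161, 157 and 181 CPM in the knockout libraries (0.87 ± 0.12 (SE), adjusted p = 0.00559), again without overlap. PSMA3, PSMA6 and PSMA2 rose by 0.99, 0.75 and 0.63 in log2 (adjusted p = 0.0132, 0.0292 and 0.0348). PSMA4 and PSMA1 stood at 0.43 and 0.33 (adjusted p = 0.0795 and 0.177). In each of the 7 genes SA19 was the lower of the wild-type libraries, as for PSMA6 with 221 and 323 against 474, 417 and 486 CPM.

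The 4 beta-ring genes without a proteolytic site in their product all rose. PSMB2 (chr1:35599544-35641844) measured 54.1 and 70.7 CPM in the wild-type libraries and 151, 130.2 and 146 CPM in the knockout libraries, and its groups were far apart (log2 change 1.19 ± 0.16 (SE), adjusted p = 0.00475). PSMB1 measured 97.8 and 100.1 CPM in the wild-type libraries and 148, 156 and 161 CPM in the knockout libraries (0.65 ± 0.11 (SE), adjusted p = 0.00855), with the wild-type libraries close to each other. PSMB3 and PSMB4 rose by 0.73 and 0.66.

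Among the 3 constitutive catalytic genes, 2 rose and 1 did not pass the test. PSMB7, the subunit with trypsin-like activity, measured 86.8 and 99.4 CPM in the wild-type libraries and 144, 145 and 143 CPM in the knockout libraries (log2 change 0.63 ± 0.11 (SE), adjusted p = 0.0109). PSMB6, with caspase-like activity, measured 71.0 and 76.5 CPM in the wild-type libraries and 105, 105 and 109.6 CPM in the knockout libraries (0.53 ± 0.11 (SE), adjusted p = 0.0138). In both genes every knockout value exceeded both wild-type values, by about as much in each library. PSMB5 (chr14:23016543-23035230), which carries the chymotrypsin-like site and is the main target of bortezomib, measured 49.0 and 50.4 CPM in the wild-type libraries and 58.8, 60.8 and 56.1 CPM in the knockout libraries. The knockouts were above the wild types here too, yet the change was 0.24 ± 0.11 (SE), adjusted p = 0.133, which missed the threshold.

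None of the 3 immunoproteasome genes passed the test. PSMB8 measured 80.1 and 52.0 CPM in the wild-type libraries and 80.9, 70.6 and 85.1 CPM in the knockout libraries (0.25 ± 0.20 (SE), adjusted p = 0.361). PSMB9, its neighbour on chromosome 6 (chr6:32844136-32859585), measured 35.2 and 21.7 CPM in the wild-type libraries and 45.4, 34.5 and 41.0 CPM in the knockout libraries (0.50 ± 0.23 (SE), adjusted p = 0.142). PSMB10 measured 64.3 and 34.7 CPM in the wild-type libraries and 57.8, 54.5 and 67.7 CPM in the knockout libraries (0.28 ± 0.26 (SE), adjusted p = 0.443). In each gene the SA19 library was 1.5 times the SA28 library or more, and each knockout value lay above SA28. Unadjusted p was under 0.05 for 0 of the 3 in edgeR, and DESeq2 called 0 of them. The non-calls depended on the wild-type libraries. Without SA19, which leaves SA28 as the only wild-type library, the log2 changes were 0.61 for PSMB8, 0.91 for PSMB9 and 0.80 for PSMB10. The lowest values over the 12 alternatives were -0.00077, 0.22 and -0.076 in the same order. None of the 3 passed in an alternative that kept both wild-type libraries. Of 15 listed genes of antigen presentation 1 rose, 3 fell and 11 did not pass, against 15.8% and 14.6% of all genes that rose and fell. TAPBP rose (101 and 84.2 against 176, 161 and 150.3 CPM, 0.81 ± 0.14 (SE), adjusted p = 0.009), and among those that fell were HLA-E (248 and 119.6 against 60.7, 48.7 and 71.5 CPM, -1.61 ± 0.31 (SE), adjusted p = 0.013) and HLA-B (-1.20, adjusted p = 0.0389). HLA-E and HLA-B also differed about 2.0-fold between the wild-type libraries, SA19 being the higher.

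To set the immunoproteasome against its constitutive partners per gene length, deposited TPM was used as a share of each catalytic pair. PSMB8 made up 58.6% and 49.1% of PSMB8 plus PSMB5 in wild type, 56.4%, 53.5% and 59.5% in the knockouts, and 61.3% and 63.2% in MOLT-14 with the empty vector and STAG2. PSMB9 made up 26.5% and 17.2% of its pair with PSMB6 in wild type, 24.0%, 19.4% and 21.5% in the knockouts, and 21.2% and 22.1% in MOLT-14. PSMB10 made up 46.5% and 28.7% of its pair with PSMB7 in wild type, 31.9%, 30.8% and 36.1% in the knockouts, and 38.1% and 40.6% in MOLT-14. Within PF382 the wild-type libraries were the extremes of each pair or nearly so, and the groups overlapped. Over the 3 pairs together the share was 36.7% ± 9.78 (SD, n = 2) in wild type and 34.2% ± 2.22 (SD, n = 3) in the knockouts, a difference of -2.51 percentage points with an exact two-sided permutation p of 0.8. The sign turned with the wild-type library left out: 4.40 without SA19 and -9.42 without SA28.

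**Figure D2:**
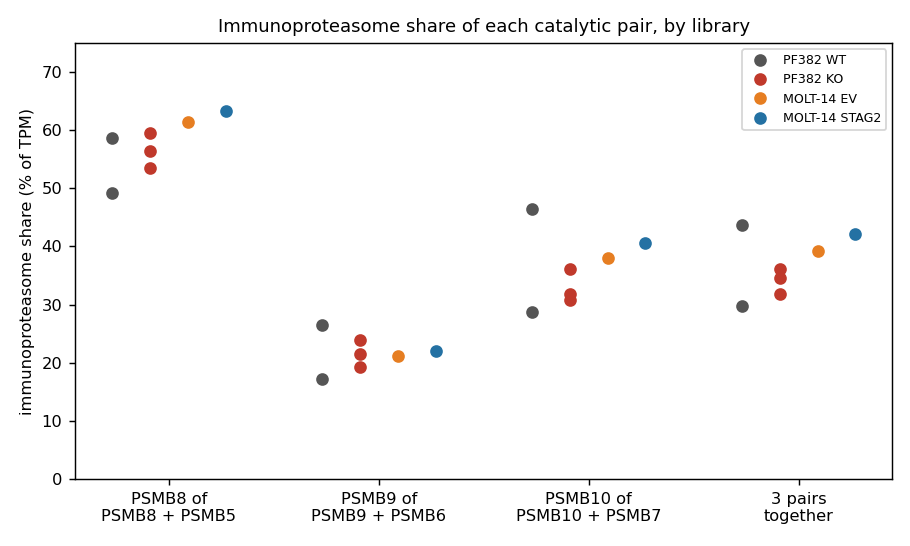
Share of the immunoproteasome subunit in each catalytic pair (percent of deposited TPM), 1 point per library, for PSMB8, PSMB9, PSMB10 and the 3 pairs together. The 2 wild-type PF382 libraries differ more from each other (43.6% and 29.8% over the 3 pairs) than the 3 knockout libraries do (31.8% to 36.1%).

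In the base of the cap, 5 of the 6 ATPase genes and all 3 non-ATPase genes rose. The ATPases form the ring that unfolds substrates. PSMC3 measured 109 and 115 CPM in the wild-type libraries and 189.8, 211 and 226 CPM in the knockout libraries (0.90 ± 0.13 (SE), adjusted p = 0.00591), and PSMC2 measured 84.5 and 86.0 CPM in the wild-type libraries and 149, 152 and 179.7 CPM in the knockout libraries (0.91 ± 0.13 (SE), adjusted p = 0.00601). Neither gene's groups overlapped, and the wild-type libraries were close to each other. PSMC4, PSMC5 and PSMC6 rose by 0.84, 0.84 and 0.46, and PSMC1 did not pass (log2 change 0.35, adjusted p = 0.0574). PSMD1 (chr2:231056864-231172827), a large scaffold subunit, had the largest change of any member: it measured 61.9 and 77.2 CPM in the wild-type libraries and 182, 162 and 179.9 CPM in the knockout libraries (1.33 ± 0.14 (SE), adjusted p = 0.00325). PSMD2, the scaffold that binds ubiquitin shuttles, measured 121 and 123 CPM in the wild-type libraries and 241, 219 and 222 CPM in the knockout libraries (0.90 ± 0.12 (SE), adjusted p = 0.00456). Each of these 6 knockout values was more than 1.5 times the highest wild-type value of its gene. PSMD4, a ubiquitin receptor, rose by 0.49 (adjusted p = 0.0162).

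The lid of the cap, which holds the deubiquitinase PSMD14, had 7 of 8 genes higher. PSMD6 measured 79.3 and 66.5 CPM in the wild-type libraries and 121, 124 and 132 CPM in the knockout libraries (0.78 ± 0.13 (SE), adjusted p = 0.00771). PSMD7, the partner of PSMD14, measured 62.2 and 71.3 CPM in the wild-type libraries and 117, 101 and 116 CPM in the knockout libraries (0.74 ± 0.13 (SE), adjusted p = 0.0095). The lid genes were close to one another in response: PSMD11, PSMD13, PSMD3, PSMD8 and PSMD14 rose by 0.82, 0.79, 0.79, 0.67 and 0.66. PSMD12 stood at 0.50 and did not pass (adjusted p = 0.0603).

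Among the assembly chaperones, 2 of 7 genes rose and 5 did not pass the test. PSMD9, a chaperone of the ATPase ring, measured 23.6 and 12.1 CPM in the wild-type libraries and 41.2, 44.6 and 42.9 CPM in the knockout libraries (1.27 ± 0.27 (SE), adjusted p = 0.018). Its groups did not overlap, although the wild-type libraries differed about 2.0-fold from each other. The other chaperones of the base did not pass: PSMD5 measured 27.7 and 27.5 CPM in the wild-type libraries and 36.3, 30.6 and 36.9 CPM in the knockout libraries (0.33 ± 0.13 (SE), adjusted p = 0.102), and PSMD10, known as gankyrin, was within the wild-type range in each knockout library (0.08 ± 0.17 (SE), adjusted p = 0.756). Of the core chaperones, PSMG1 measured 75.8 and 73.4 CPM in the wild-type libraries and 120.2, 113 and 136 CPM in the knockout libraries (0.72 ± 0.12 (SE), adjusted p = 0.00895), with no overlap. PSMG3 measured 26.3 and 19.9 CPM in the wild-type libraries and 29.1, 32.9 and 32.2 CPM in the knockout libraries (0.44 ± 0.16 (SE), adjusted p = 0.0723), and PSMG4 and PSMG2 stood at 0.31 and 0.10. PSMC3IP, the recombination factor, did not pass (0.31, adjusted p = 0.324).

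All 4 activator genes rose, and so did PSMF1. PSME3, the activator subunit of the nucleus (chr17:42824385-42843758), measured 49.4 and 44.2 CPM in the wild-type libraries and 118, 97.1 and 97.1 CPM in the knockout libraries. Each knockout value was more than 1.5 times the highest wild-type value, with a log2 change of 1.15 ± 0.14 (SE), adjusted p = 0.00397. PSME1 and PSME2, neighbours on chromosome 14 that form the interferon-inducible activator, measured 192 and 212 against 274, 285 and 300.4 CPM (0.50 ± 0.12 (SE), adjusted p = 0.025) and 77.2 and 70.9 against 110.3, 103 and 114 CPM (0.56 ± 0.11 (SE), adjusted p = 0.0143), wild type against knockout. PSME4, a large single-chain activator, measured 39.0 and 42.9 CPM in the wild-type libraries and 56.2, 50.7 and 53.6 CPM in the knockout libraries (0.39 ± 0.11 (SE), adjusted p = 0.0452). PSMF1, first described as an inhibitor of the core, measured 47.3 and 43.6 CPM in the wild-type libraries and 65.1, 65.5 and 56.5 CPM in the knockout libraries (0.46 ± 0.12 (SE), adjusted p = 0.0338). PSME1, PSME2, PSME4 and PSMF1 did not overlap between groups, but each lost its call in 3 or more of the 12 alternatives.

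**Figure D3:**
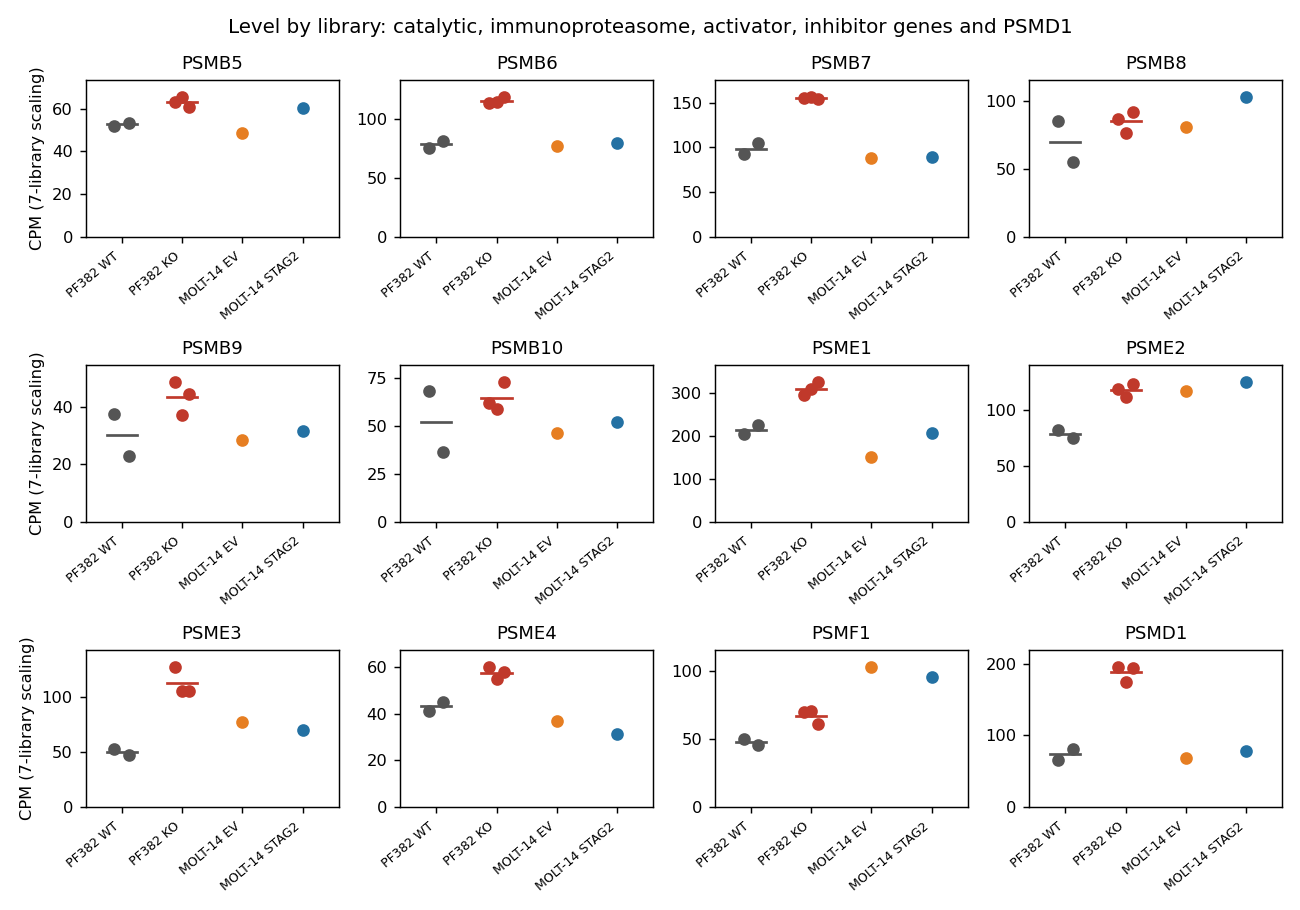
Level of 12 proteasome genes in each library, in CPM on the scaling of all 7 libraries, with the group mean as a line for the PF382 groups. The knockout points of PSMB6, PSMB7, PSME1, PSME3 and PSMD1 stand above every other library, while those of PSMB8, PSMB9 and PSMB10 overlap the 2 wild-type points.

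Partners of the proteasome outside the named family moved in both directions. Of 13 proteasome-associated genes 12 could be tested in PF382, and 4 rose and 1 fell (15.8% and 14.6% of all genes). Those that rose were the ubiquitin ligase UBE3C (64.5 and 73.3 against 115, 114 and 113 CPM, 0.73 ± 0.11 (SE), adjusted p = 0.00694), the ubiquitin receptor ADRM1 (66.5 and 51.2 against 101, 119 and 125 CPM, 0.97 ± 0.16 (SE), adjusted p = 0.00899), the deubiquitinase UCHL5 (0.82, adjusted p = 0.0185) and the core maturation factor POMP (0.66, adjusted p = 0.0272). AKIRIN2, which carries proteasomes into the nucleus, fell by 0.46 (adjusted p = 0.0449) and is named after its value was seen. Among 10 genes listed as regulators of the proteasome or of its transcription, 1 rose and 2 fell, which is near the shares of all genes (15.8% and 14.6%). ZFAND2A, a stress-induced proteasome-binding protein, measured 21.2 and 25.8 against 7.75, 8.36 and 8.78 CPM (-1.50 ± 0.15 (SE), adjusted p = 0.00303), with each knockout value under both wild-type values. KEAP1, the adaptor that marks NFE2L2 for degradation, rose by 0.45 (adjusted p = 0.0287), and NGLY1, which activates the NFE2L1 protein, fell by 0.41 (adjusted p = 0.0383). DDI2, the protease that cleaves NFE2L1, stood at 0.43 (adjusted p = 0.0694). NFE2L1 itself, the transcription factor of proteasome genes, is named after its value was seen. It measured 133 and 144 against 124, 115 and 122 CPM and did not pass (-0.20 ± 0.11 (SE), adjusted p = 0.198).

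Of 18 genes of ubiquitin, its activation and delivery, 5 rose and 0 fell (15.8% and 14.6% of all genes), and no gene of the list fell at an unadjusted p under 0.05 in edgeR. VCP, the unfoldase that extracts ubiquitin-tagged proteins, measured 251 and 296 against 523, 490.5 and 544 CPM (0.92 ± 0.14 (SE), adjusted p = 0.00649). Its cofactors UFD1 and NPLOC4 rose by 0.78 and 0.61, the shuttle UBQLN4 by 1.003, and the activating enzyme UBA1, named after its value was seen, by 0.65. In this list the 13 other genes did not pass the test.

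Levels of different members were compared per length, in TPM rescaled to 1 common sum over the protein-coding genes of each library. The 14 expressed core genes were unequal in RNA. Their products are built in at equal numbers of copies, except that immunoproteasome subunits can take the places of PSMB5, PSMB6 and PSMB7. The highest core gene was 9.91 and 10.7 times the lowest in wild type, 9.84, 10.4 and 12.3 times in the knockouts, and 3.85 and 3.77 times in MOLT-14. PSMA6 and PSMA7 were the highest in PF382 and PSMB2 or PSMB5 the lowest. PSMA7 measured 446 and 460.0 in wild-type PF382, 886, 921 and 988 in the knockouts, 334 in MOLT-14 with the empty vector and 292 with STAG2. PSMB2 measured 48.4 and 56.2 in wild-type PF382, 118, 96.2 and 111 in the knockouts, 94.7 in MOLT-14 with the empty vector and 82.5 with STAG2, and in wild type it was the lowest core gene. PSMB5 measured 94.2 and 78.4 in wild-type PF382, 92.1, 88.5 and 80.6 in the knockouts, 92.1 in MOLT-14 with the empty vector and 91.2 with STAG2, and it was the lowest in each knockout library, where its neighbours rose. The coefficient of variation among the core genes was 56.7% and 62.3% in wild type, 68.9%, 70.4% and 72.1% in the knockouts, and 45.1% and 42.5% in MOLT-14.

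On the same scale, the summed level of the core without the immunoproteasome was 3202 and 3422 in wild-type PF382, 5112, 4922 and 5258 in the knockouts, and 2799 and 2486 in MOLT-14 with the empty vector and with STAG2. The cap sum was 1764 and 1552 in wild-type PF382, 2539.8, 2364 and 2495 in the knockouts, and 1866 and 1838 in MOLT-14 with the empty vector and with STAG2. Both sums were higher in each knockout library than in any of the other 4, with ratios of knockout to wild-type means of 1.54 and 1.49. The activator sum had a ratio of 1.37 and the immunoproteasome sum one of 1.13, the latter with overlapping groups. Each of these comparisons had an exact two-sided permutation p of 0.2, the smallest possible, except the immunoproteasome sum with 0.8.

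In MOLT-14, transduction of STAG2 changed no member by 1.5-fold. With 1 library per group there is no replicate check and no test. All 47 expressed members were above 5 CPM, and 0 passed 1.5-fold in either direction, where 3.78% of 11123 genes were that much higher and 3.2% that much lower with STAG2. The log2 ratios of STAG2 over empty vector ran from -0.24 (PSME4) to 0.50 (PSMC3), with a median of 0.10 against 0.03 over all genes. Of the 47, 36 were higher and 11 lower with STAG2, where 55.2% of all genes were higher. With upper-quartile scaling, or with protein-coding genes alone, 32 were higher and 15 lower, as PSMA1, PSMB2, PSMB7 and PSMD6 changed sign. The 95% interval for counting error lay above 0 for 28 members, below 0 for 8, and across 0 for 11. The share of all genes with such intervals was not counted. At these depths the interval is narrow and can leave out 0 at a small ratio, as for PSME2 (0.10, interval 0.05 to 0.15).

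The members furthest from 0 in MOLT-14 were in the cap base and the activators. PSMC3 measured 89.6 CPM with the empty vector and 127 CPM with STAG2, a log2 ratio of 0.50 (95% interval 0.44 to 0.56). PSMC4 followed with a ratio of 0.44, and all 6 ATPase genes and all 3 non-ATPase base genes were higher with STAG2, down to 0.12 for PSMC6. PSMD2 measured 144 CPM with the empty vector and 181 CPM with STAG2, a log2 ratio of 0.33 (95% interval 0.29 to 0.38). Among the activators, PSME1 measured 151 CPM with the empty vector and 206 CPM with STAG2, a log2 ratio of 0.45 (95% interval 0.40 to 0.49), and PSME4 went the other way with 37.1 CPM with the empty vector and 31.4 CPM with STAG2, a log2 ratio of -0.24 (95% interval -0.34 to -0.14). The lid ranged from -0.16 (PSMD12) to 0.34 (PSMD3), the alpha ring from -0.14 (PSMA3) to 0.30 (PSMA2), and the non-catalytic beta genes from -0.03 (PSMB1) to 0.21 (PSMB3). PSMB5 was the highest of the catalytic genes at 0.31, and PSMB8 of the immunoproteasome at 0.35. The chaperones ran from -0.22 (PSMD5) to 0.07 (PSMD9) for the base and from -0.20 (PSMG4) to 0.17 (PSMG2) for the core, and PSMF1 was at -0.10.

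The knockout contrast in PF382 and the transduction contrast in MOLT-14 share no library. Of the 33 members that rose in the PF382 knockouts, 25 were higher and 8 lower with STAG2 in MOLT-14 (24.2% lower). Of all 2448 genes that rose in PF382 and were measured in MOLT-14, 1015 (41.5%) were lower with STAG2. PSMD1, for example, was 1.33 log2 units higher in the PF382 knockouts and 0.21 log2 units higher with STAG2 in MOLT-14.

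**Figure D4:**
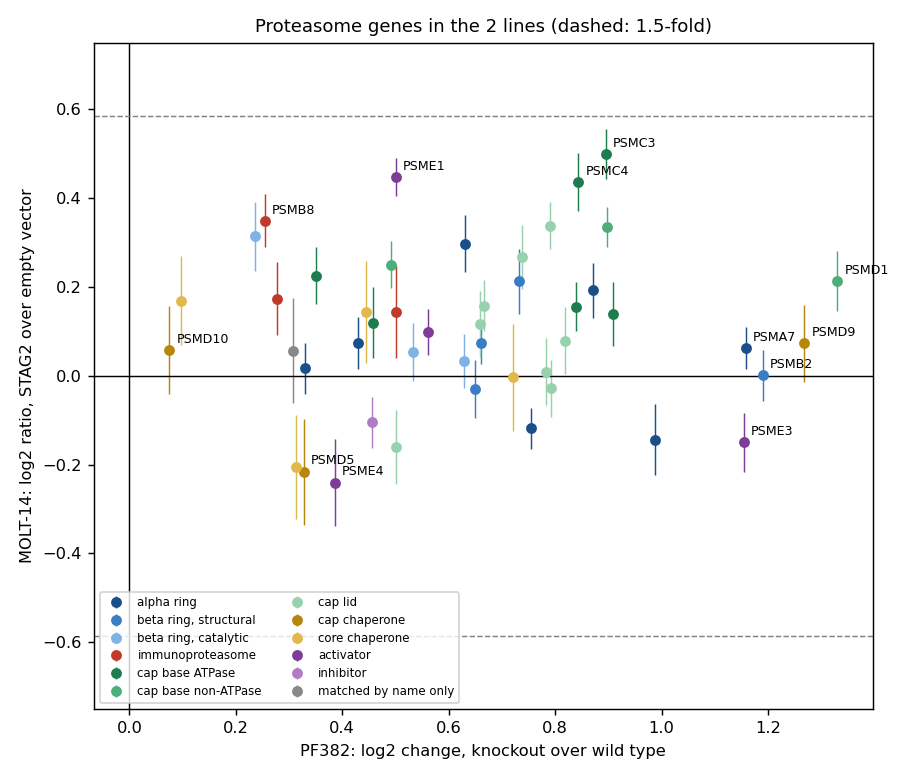
Each tested proteasome gene by its log2 change in PF382 (knockout over wild type, horizontal) and its log2 ratio in MOLT-14 (STAG2 over empty vector, vertical, bars are 95% counting intervals), coloured by role. The points spread from 0.08 to 1.33 along the horizontal axis and stay within the dashed 1.5-fold lines on the vertical axis.

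The difference of the STAG2 contrast between the lines, knockout minus wild type in PF382 less empty vector minus STAG2 in MOLT-14, was tested in a fit of all 7 libraries. Its spread comes from the PF382 libraries, and the lone MOLT-14 libraries are assumed to vary like them. All 47 differences were above 0, with a median of 0.76 against -0.05 over all genes. In edgeR 0 of 47 passed the adjusted threshold and 32 were higher at an unadjusted p under 0.05, where 0.607% of all 20100 genes were called and 12% were higher and 9.26% lower at that unadjusted p. DESeq2 called 24 members, where it called 9.97% of all genes as higher. Leaving out 1 wild-type library raised edgeR's count to 18 (without SA19) or 21 (without SA28), where 7.84% and 6.97% of all genes were called higher. Without any 1 knockout library 0 of all genes were called, the members included. The largest differences were those of PSMD1, 1.57 (unadjusted p = 0.00055, adjusted p = 0.0561), and PSMC3, 1.42 (unadjusted p = 0.000576, adjusted p = 0.057). The immunoproteasome genes ran from 0.48 (PSMB10) to 0.67 (PSMB9). Of the genes called for this difference, 56.6% were higher with TMM, 10.7% with upper-quartile scaling, 30.6% with protein-coding genes alone and 69.6% in DESeq2.

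Between the lines, most members were higher in PF382, and how many depended on which groups were set against each other. In the contrast of the mean of the PF382 groups with the mean of the MOLT-14 groups, 28 members were higher in PF382, 5 lower and 14 not called, where 27% of all 20100 genes were higher and 28.4% lower (55.4% in either direction). The median was 0.53 against -0.05 over all genes. Wild-type PF382 against MOLT-14 with STAG2 gave 6 higher and 9 lower at a median of 0.06 (background 17.3% and 17.4%). Knockout PF382 against MOLT-14 with the empty vector gave 34 higher and 4 lower at a median of 0.84 (background 23.1% and 24%). The line, the editing and the transduction cannot be told apart in these contrasts, which share libraries with those above.

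**Figure D5:**
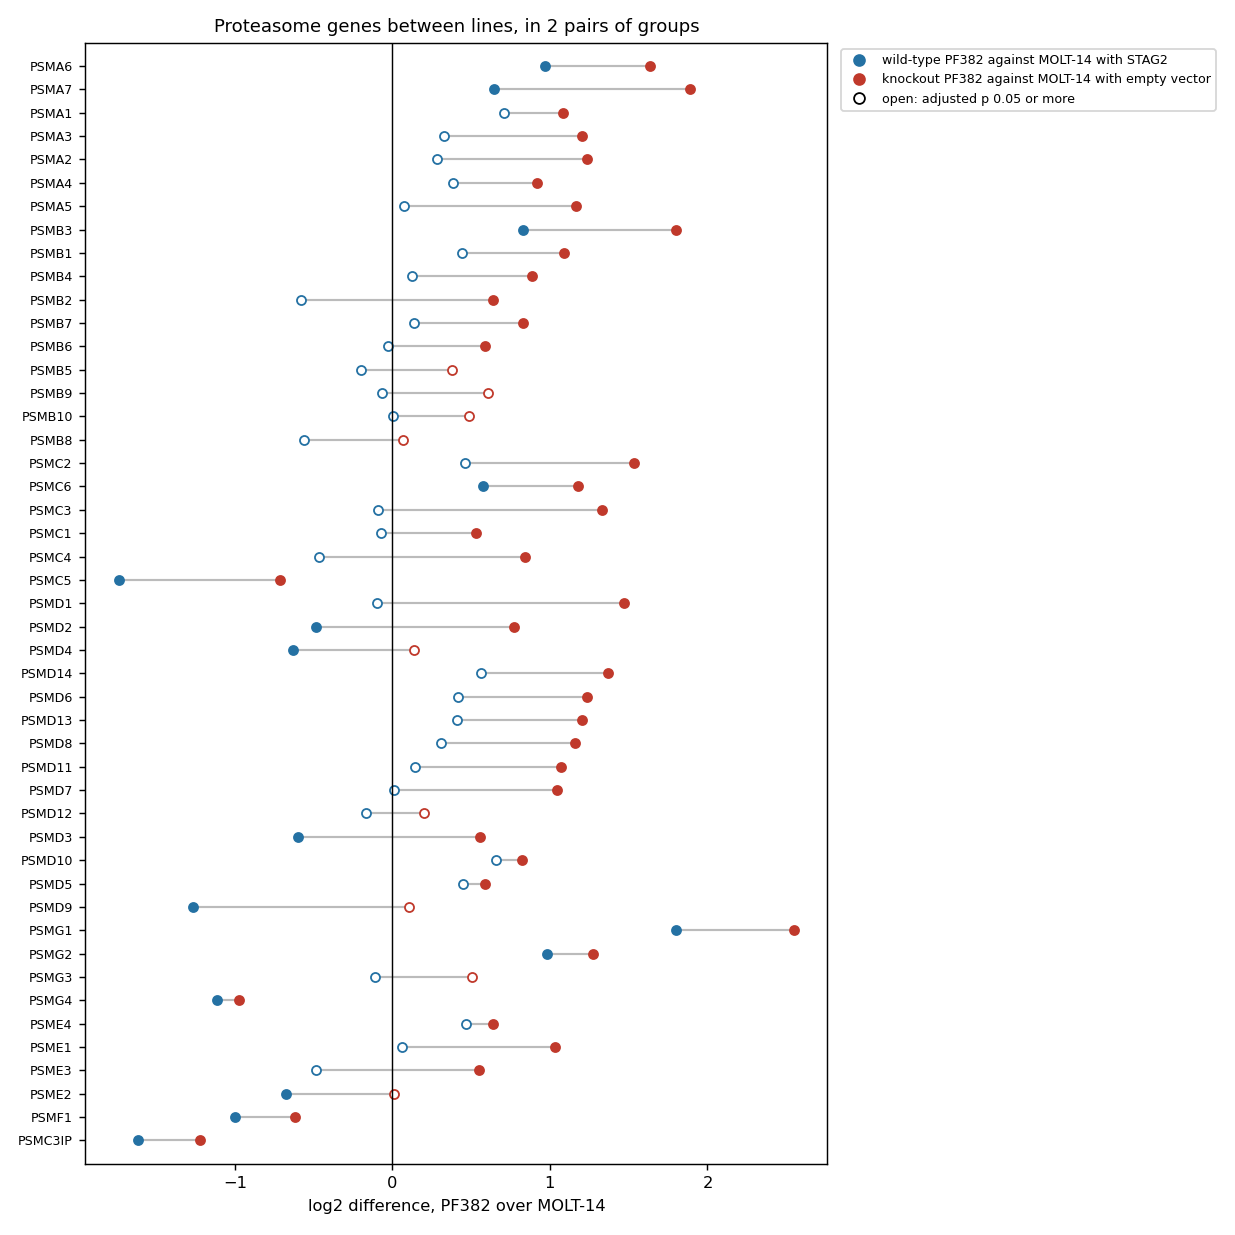
Log2 difference of each tested proteasome gene between PF382 and MOLT-14, for wild-type PF382 against MOLT-14 with STAG2 (blue) and knockout PF382 against MOLT-14 with the empty vector (red), ordered by role. Filled points passed the test. Blue points centre near 0 (median 0.06) and red points lie to the right (median 0.84), while PSMG1 is far right and PSMC5, PSMG4, PSMF1 and PSMC3IP are left of 0 in both pairs.

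A few members differed between the lines in both pairs of groups. PSMG1, a chaperone that starts the assembly of the alpha ring, measured 80.5 and 77.5 CPM in wild-type PF382, 129, 123 and 147 CPM in the knockouts and 22.7 and 22.7 CPM in MOLT-14 (log2 difference 2.17 ± 0.13 (SE), adjusted p = 8.42e-05). Its lowest PF382 value was more than 3 times its MOLT-14 values, and the pairs gave 1.80 (wild type against STAG2) and 2.55 (knockout against empty vector). PSMG2, its binding partner, was higher by 1.13. PSMG4, in contrast, measured 11.5 and 9.46 CPM in wild-type PF382, 14.6, 13.7 and 11.5 CPM in the knockouts and 26.1 and 22.6 CPM in MOLT-14 (-1.04 ± 0.16 (SE), adjusted p = 0.00207). PSMC5 measured 33.0 and 36.3 CPM in wild-type PF382, 72.7, 58.0 and 58.7 CPM in the knockouts and 104 and 115 CPM in MOLT-14 (-1.22 ± 0.12 (SE), adjusted p = 0.000488), and it was the lowest ATPase gene per length in each PF382 library. PSMF1 was also lower in PF382, by a log2 difference of -0.81 ± 0.10 (SE), adjusted p = 0.00122, as was PSMC3IP (-1.42). PSME2 stood at -0.33 in the contrast of means, but its pairs were -0.68 (wild type against STAG2) and 0.01 (knockout against empty vector).

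In the core, all 7 alpha genes were called higher in PF382 in the contrast of means, where 27% of all genes were. They ran from 0.62 (PSMA5) to 1.30 (PSMA6), and PSMB3 led the beta ring. In wild-type PF382 against MOLT-14 with STAG2 the alpha genes ran from 0.075 (PSMA5) to 0.97 (PSMA6). There 2 of the 7 were called higher, where 17.3% of all genes were. PSMA6 measured 235 and 341 CPM in wild-type PF382, 509, 451 and 526 CPM in the knockouts and 159.7 and 147 CPM in MOLT-14 (1.30 ± 0.18 (SE), adjusted p = 0.00161), without overlap between lines. PSMB3 measured 102 and 135 CPM in wild-type PF382, 178, 206 and 218 CPM in the knockouts and 57.6 and 66.8 CPM in MOLT-14 (1.31 ± 0.16 (SE), adjusted p = 0.000955), also without overlap. PSMB2 stood at 0.03, the catalytic genes between 0.09 (PSMB5) and 0.48 (PSMB7), and the immunoproteasome genes between -0.25 (PSMB8) and 0.27 (PSMB9), none of these 3 called. In the cap, the base ran up to 0.998 for PSMC2 and 0.69 for PSMD1, with PSMD4 at -0.25. The lid ran from -0.02 (PSMD3) to 0.97 (PSMD14). PSMD10 at 0.74, PSMD9 at -0.58 and PSME4 at 0.55 were the extremes of the base chaperones and the activators.

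Expected counts split reads that fit several genes. Of the members, 11 had a fractional count in some library, among them 6 of the 33 that rose, and the other 27 that rose had whole counts throughout. PSMC1 shares reads with the pseudogene PSMC1P1, which held 461.6 and 484.5 counts in wild type and 1528, 2151 and 1821 in the knockouts, against 2488 and 2670 and then 6833, 9030 and 7602 for PSMC1. The values of both genes are uncertain to that extent. PSMB8 overlaps a gene on the other strand, PSMB8-AS1 (404 and 178 counts in wild type and 682, 1159 and 1161 in the knockouts). PSMB8 had whole counts in all 7 libraries, so its counts show no split reads. The strand setting is not given in the sources used here, so how reads of the other strand were counted is not known.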

How the data were processed

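The authors sequenced total RNA of 2 cell lines in 7 libraries and deposited 1 table per library. Per the file headers each table holds expected counts (reads estimated for each gene, with no scaling), and the deposited TPM and FPKM columns scale them by gene length and library. Per the submitters' processing notes reads were handled with STAR and RSEM, and the genome is named GRCh38 or hg38. Their versions, the annotation release and the strand setting are not given in the sources used here. FPKM as deposited was not used.

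Expected counts were rounded, and rows of the 92 ERCC spike-ins dropped. Tests used edgeR 4.0.16 in R 4.3.3 (TMM scaling, filterByExpr, two-sided quasi-likelihood test, Benjamini-Hochberg adjustment over all genes tested, threshold 0.05), with standard errors taken from the log2 change and the F statistic. The knockout comparison used the 5 PF382 libraries. The line and difference contrasts used all 7 libraries in 4 groups. MOLT-14 ratios used a prior count of 2 among genes of at least 5 CPM in either library, and their exact binomial 95% intervals, like the floor of 3 counts, cover counting error only. CPM values for PF382 alone use the scaling of those 5 libraries, and values set beside MOLT-14 that of all 7. The fits were tested on simulated data. DESeq2 1.42.0 was an alternative, as were other scalings, filters and leaving out each library.

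The members, the gene lists and the rule for named genes were chosen with earlier results of these data known. The rule took the catalytic, immunoproteasome and activator genes and PSMF1, the 2 smallest adjusted p in each other role group, the extremes of each group between lines and in MOLT-14, and up to 4 genes of each list, and genes of the lists beyond it were named after their values were seen. Depth was 32609485 to 93970572 counts per library, so that 3 counts make 0.0319 to 0.0920 CPM. A few genes of the lists are not reported here.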

Additional observations from a re-analysis of the deposited data

How the results depend on the processing

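In the PF382 knockout comparison the number of members that rose ran from 18 to 38 with 1 library left out (21, 18 and 18 without knockout replicates 1, 2 and 3) and from 27 to 37 under the other settings, and none fell in any of them. Between the lines, the count moved from 33 (28 higher) to 21 (17 higher) with the libraries fitted as 2 groups by line, and to 15 (6 higher, 9 lower) for wild-type PF382 against MOLT-14 with STAG2. Leaving out 1 library gave 4 to 8 lower members, the 8 without SA19. In wild-type PF382 against MOLT-14 with STAG2, 12 members turned from above to below 0, among them PSMB6 (-0.027), PSMC3 (-0.092), PSMD1 (-0.10) and PSMD2 (-0.49). In knockout PF382 against MOLT-14 with the empty vector 5 turned from below to above 0, among them PSME2 (0.012) and PSMD3 (0.56). The count of members whose STAG2 contrast differed between lines went from 0 to 24 in DESeq2 and ran from 0 to 21 with 1 library left out (0 of all genes were called without any 1 knockout library), while the number of all genes called was 122 in edgeR, with 69 higher, and 1489 higher in DESeq2. The immunoproteasome share over the 3 pairs ran from -9.42 to 4.40 points (knockout minus wild type) with 1 library left out. For single pairs the range was -2.14 to 7.32 for PSMB8, where the sign turned without SA28. It was -4.86 to 4.47 for PSMB9, which turned without SA19 and without knockout replicate 2 (0.936), and -13.6 to 4.22 for PSMB10, which turned without SA19. No member passed 1.5-fold in MOLT-14 under any alternative. The cause of these changes was not tested. No paired analysis was possible because the labels give no replicate numbers that join wild-type to knockout libraries. Only 2 wild-type libraries, of lower depth than the knockouts, limit the knockout comparison.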

Other observations

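ECPAS, the adaptor that binds the core to the cap and to membranes, is no member by name and could not be tested within PF382. It held 4166 and 4253 counts in MOLT-14 with the empty vector and with STAG2, that is 85.4 and 84.7 CPM. In PF382 it held 0 and 0 counts in wild type and 0, 2 and 0 in the knockouts. With a floor of 3 counts per library, the level in MOLT-14 was at least 871-fold higher. The gene lies at chr9:111360692-111484745 (GRCh38, GENCODE 29). Of the coding genes that follow it on the chromosome, ZNF483 and PTGR1 were at 0 counts in all 7 libraries. DNAJC25 held 125 and 141 counts in wild-type PF382 and 238 and 197 in MOLT-14, and GNG10 and UGCG were expressed in both lines, GNG10 with 1031 and 902 counts against 435 and 514. DNAJC25, GNG10 and UGCG thus had counts in every library of both lines.

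Antigen presentation genes in MOLT-14 were described beside the immunoproteasome. NLRC5, the activator of MHC class I transcription, was at 25.5 CPM with the empty vector and 48.0 CPM with STAG2, a log2 ratio of 0.91. It was the only one of the 15 listed genes past 1.5-fold there, where 3.78% of all genes were that much higher and 3.2% lower. With 1 library per group there was no test. In PF382 it was at 16.2 and 5.98 against 8.28, 8.69 and 11.99 CPM, wild type against knockout, and did not pass the test (-0.20 ± 0.41 (SE), adjusted p = 0.738). USP14, a deubiquitinase of the proteasome, was at 38.1 CPM with the empty vector and 25.3 CPM with STAG2, a log2 ratio of -0.59. It was the 1 of 13 proteasome-associated genes past 1.5-fold, in the lower direction, again without a test. In PF382 USP14 did not pass the test (0.23 ± 0.19 (SE), adjusted p = 0.394).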
